A study of Mus musculus with 6 samples.

Results

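The genes described here are 9 that act in protein folding and in stress sensing in the endoplasmic reticulum (ER), taken from the RNA-Seq count table of stage 0 iNKT cells by their symbols: Canx, Calr, Pdia3, Pdia4, Pdia6, Ern1, Eif2ak3, Atf6 and Xbp1. They are 9 of the 48397 genes listed, and all 9 passed the filter on low counts. Invariant natural killer T (iNKT) cells are T cells that recognise lipids on CD1d, and stage 0 is their first step after positive selection in the thymus. The control cells came from BALB/c mice with wild-type Zap70, the kinase that relays the signal of the T cell receptor (TCR), and the others from SKG mice, which carry a hypomorphic Zap70 on the BALB/c background. Each genotype had 3 libraries, every library was made from pooled thymi of 3 mice aged 8 to 10 weeks, and about 1000 cells were recovered by sorting on the PBS57-CD1d tetramer, CD24 and CD69 without CD44 or CD8 and with little or no CD4. A replicate is therefore a pool and not a single mouse, and the mutation is present in every cell of an SKG mouse, so that effects within iNKT cells and effects of the other cells of the thymus cannot be told apart in this design.

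Secreted and membrane proteins, TCR chains and CD1d among them, fold in the ER. Calnexin (Canx) and calreticulin (Calr) are lectins that hold newly made glycoproteins, and Pdia3 (ERp57) is the disulfide isomerase that works with them, also during assembly of MHC class I and of CD1d. Pdia4 (ERp72) and Pdia6 (P5) are further protein disulfide isomerases. When unfolded proteins accumulate, 3 membrane sensors start the unfolded protein response (UPR): IRE1α (Ern1) splices Xbp1 mRNA, PERK (Eif2ak3) phosphorylates eIF2α and slows translation, and ATF6 (Atf6) is cut to release a transcription factor. XBP1 made from the spliced mRNA and the released part of ATF6 turn on chaperone genes. Splicing of Xbp1, cleavage of ATF6 and phosphorylation of PERK are not measured by counts per gene.

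A sequence shared by some of these genes is the ER stress response element, CCAAT and CCACG separated by 9 bases, to which ATF6 binds together with NF-Y. RefSeq promoter windows of GRCm38.p6, reaching from 250 bases before to 50 bases after the start of transcription, were available for 8 of the 9 members. Searched on both strands, the element was in 3 of them, Canx, Calr and Pdia6, and in 39 of all 32851 windows (0.119%). It was also in 6 of 47 windows of other ER and UPR genes, among them that of Hspa5 (BiP), the main Hsp70 chaperone of the ER. The 4 stretches shown are those of the members and of Hspa5. SKG and BALB/c libraries did not overlap for Calr, Pdia6 and Hspa5, and they overlapped for Canx. Of the other list genes with the element, Hsp90b1 was lower in SKG without overlap, and Dnajc3, Creld2, Syvn1 and Derl3 overlapped. Over all genes tested, 7.12% were lower in SKG without overlap. A link between the element and a genotype difference was not tested. Capitals mark the 2 parts of the element, which in Calr is read on the opposite strand, and each stretch is given in the direction of transcription.
Canx, chr11:50325780-50325838, minus strand, element 145 to 127 bases before the start: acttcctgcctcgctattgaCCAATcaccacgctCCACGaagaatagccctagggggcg
Calr, chr8:84847055-84847113, minus strand, element 162 to 144 bases before the start: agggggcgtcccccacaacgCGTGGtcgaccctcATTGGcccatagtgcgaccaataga
Pdia6, chr12:17266471-17266529, plus strand, element 98 to 80 bases before the start: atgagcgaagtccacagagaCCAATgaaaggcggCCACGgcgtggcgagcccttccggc
Hspa5, chr2:34772005-34772063, plus strand, element 65 to 47 bases before the start: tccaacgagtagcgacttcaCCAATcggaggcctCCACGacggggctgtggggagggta

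The windows of Pdia3, Pdia4, Ern1, Eif2ak3 and Xbp1 had 0 matches to the whole element. The letters TGACGTG, which XBP1 can bind, were in 0 of the 8 members' windows and in 2.01% of all windows. A match is a description of letters, and the binding of a factor was not measured.

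The libraries held 37176544 to 43115544 reads on genes, and 0.216% to 0.360% of these lay on the members. Levels are given as CPM, read counts relative to library size after TMM scaling, and fold changes are from edgeR. Replicates are separate pools, and p-values set the genotype difference against the spread between these pools, which edgeR estimates partly from all genes. Zap70 itself averaged 448 ± 65.4 CPM in BALB/c and 356 ± 45.9 CPM in SKG (mean ± SD, n = 3 each) with overlapping libraries, and its mRNA does not check the labels because the SKG change is a point mutation. Of 7 marker lists, that of stage 0 iNKT cells (Zbtb16, Cd24a, Cd69, Egr2 and Cd3e, all detected) had summed levels of 2565 to 3129 CPM in BALB/c and 2008 to 2357 CPM in SKG, which did not overlap. Its genes differed in direction: Egr2 (averages of 1351 CPM in BALB/c and 777 in SKG) and Cd69 (353 and 193) were lower in SKG without overlap, whereas Zbtb16 (151 and 119), Cd24a (25.1 and 70.4) and Cd3e (928 and 987) overlapped. The other 6 lists overlapped between the genotypes: double-positive thymocyte (35.0 to 307 CPM in BALB/c, 47.8 to 120 in SKG), B cell (8.73 to 94.9, 7.40 to 45.0), myeloid (95.7 to 217, 69.5 to 238), erythroid (0.0270 to 69.7, 0.0515 to 0.691) and thymic epithelial (28.1 to 40.3, 10.0 to 86.9). BALB/c replicate 1 was the upper BALB/c end for the double-positive, B cell, myeloid and erythroid lists. It was also the lowest BALB/c library for 6 of the 9 members, and a link was not tested. Double-positive sums were 68.5 and 35.0 CPM in BALB/c replicates 2 and 3. The myeloid sum came mostly from Cst3 and Lyz2, with S100a9 at 0 reads. The thymic epithelial sum came mostly from Epcam, with Krt5 and Psmb11 at 0 reads in every library. Plasma cells, which are rich in ER, were represented by at most 3.96 CPM in BALB/c and 4.40 CPM in SKG summed over 5 markers, with Igha and Mzb1 at 0 reads in every library. In bulk RNA, fewer cells that express a gene and less RNA per cell cannot be told apart.

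The comparison between the genotypes asks whether weaker TCR signalling goes with other levels of the ER folding machinery. Pdia6, Pdia3 and Calr were lower in each SKG library than in any BALB/c library, by 1.71-fold, 1.68-fold and 1.33-fold, whereas Canx, Pdia4, Xbp1 and the 3 sensors overlapped. None of these differences passed the test over all genes: a call required an adjusted p under 0.1 together with a 1.5-fold difference, and edgeR's quasi-likelihood test made 0 calls among the 9 members and 0 among 12312 genes (0%). At an unadjusted p under 0.05, 3 of 9 members were lower in SKG, against 2.38% of all genes tested, and 0 were higher, against 3.07%. Shares over all genes cover genes at any level and were not matched to the abundance of the members. The count of 3 was 2 in both DESeq2 fits and without BALB/c replicate 2, BALB/c replicate 3, SKG replicate 1 or SKG replicate 2, and 1 with library numbers as a replicate block. The same 3 as in edgeR were the members without overlap in that direction, against 7.12% of all genes. The members were chosen with earlier results of these data known, so these counts are a description and not a test. The fitted log2 fold change was below 0 for all 9 members, with a median of -0.27 beside -0.02 over all genes. This common sign was not stable: 6 of 9 were below 0 without BALB/c replicate 2, 7 without SKG replicate 1, 8 without BALB/c replicate 3, SKG replicate 2 or SKG replicate 3, and 9 only without BALB/c replicate 1. BALB/c replicate 2 was the highest BALB/c library for 7 of the 9 members.

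**Figure D1:**
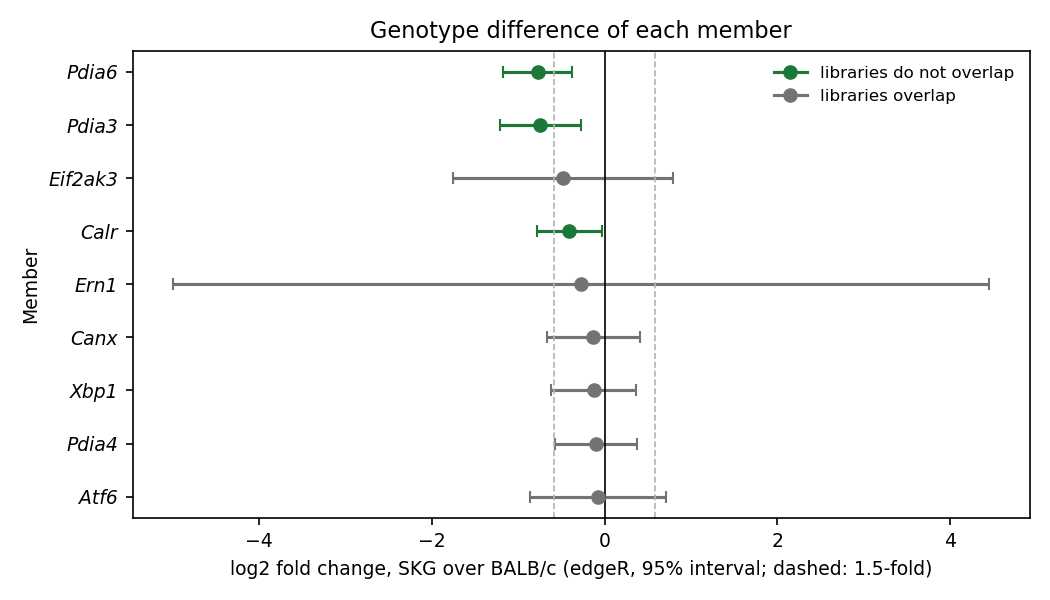
Log2 fold change (SKG over BALB/c) of each member from edgeR on the horizontal axis, with the member on the vertical axis, bars for the 95% interval and dashed lines at a fold change of 1.5. Pdia6, Pdia3 and Calr (green) have libraries that do not overlap and intervals below 0, and the interval of Ern1 reaches from -4.99 to 4.45.

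DESeq2, run on the same counts, called 1 of the 9 members. Pdia6 was lower in SKG with an adjusted p of 0.0611 without shrinkage of fold changes and 0.0799 with it, where DESeq2 called 1.35% and 0.815% of its tested genes lower. Over all alternatives the adjusted p of Pdia6 ranged up to 1.00, and limma-voom gave 0.576.

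Among the genes of glycoprotein folding, Calr (GRCm38, chromosome 8, 84841850 to 84846934) stood at 727, 901 and 752 CPM in BALB/c replicates 1 to 3 and at 507, 632 and 651 CPM in SKG replicates 1 to 3. All SKG libraries were below all BALB/c libraries. The averages were 793 ± 94.3 CPM in BALB/c and 597 ± 78.6 CPM in SKG (mean ± SD, n = 3), and the log2 fold change was -0.41 with a 95% interval of -0.79 to -0.03 (SE 0.16, edgeR adjusted p = 0.871). Omission of any 1 library gave values from -0.46 to -0.31. A pseudogene, Calr-ps, was counted separately. Reads that match both copies could be dropped for low mapping quality or be counted on either copy.

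Pdia3, the partner of both lectins (chromosome 2, 121413775 to 121438687), reached 459, 730 and 584 CPM in BALB/c and 350, 383 and 324 CPM in SKG. The SKG libraries were close together and lay under the lowest BALB/c library. The log2 fold change was -0.75 with a 95% interval of -1.21 to -0.28 (SE 0.20, edgeR adjusted p = 0.686). It was -0.57 without BALB/c replicate 2, the highest library, and -0.89 without BALB/c replicate 1, the lowest of its genotype.

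Canx (chromosome 11, 50293961 to 50325673), whose product is the membrane-bound lectin, was at 399, 700 and 455 CPM in BALB/c and at 483, 451 and 486 CPM in SKG. The SKG libraries lay inside the range of the BALB/c libraries, 1 of which was well above the other two. The log2 fold change was -0.13 (standard error 0.23, 95% interval -0.67 to 0.41), and without BALB/c replicate 2 it was 0.14. Within a library, the ratio of Pdia3 reads to Canx reads does not depend on scaling between libraries. It was 1.15, 1.04 and 1.28 in BALB/c and 0.724, 0.850 and 0.667 in SKG, so that Pdia3 was counted more often than Canx in every BALB/c library and less often in every SKG library. The ratio of Calr reads to Canx reads, at 1.82, 1.29 and 1.65 in BALB/c and 1.05, 1.40 and 1.34 in SKG, overlapped. These ratios and the next were chosen after the values were seen and carry no test.

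The other disulfide isomerases differed from each other. Pdia6 (chromosome 12, 17266545 to 17284770) was at 546, 554 and 403 CPM in BALB/c and at 272, 307 and 298 CPM in SKG. The highest SKG library lay well under the lowest BALB/c library. Its averages were 501 ± 84.6 CPM in BALB/c and 293 ± 18.3 CPM in SKG (mean ± SD, n = 3), and the log2 fold change was -0.78 with a 95% interval of -1.18 to -0.38 (SE 0.17, edgeR adjusted p = 0.617). Omission of any 1 library left it between -0.90 and -0.70.

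Pdia4 (chromosome 6, 47796141 to 47813430) was at 250, 373 and 355 CPM in BALB/c and at 293, 277 and 342 CPM in SKG. Its libraries overlapped, and the lowest of all 6 was a BALB/c library. The log2 fold change was -0.10 with a 95% interval of -0.57 to 0.37, which was nearly centred on 0. Reads on Pdia6 divided by reads on Pdia4 came to 2.19, 1.48 and 1.14 in BALB/c and to 0.928, 1.11 and 0.871 in SKG. These ratios did not overlap, although BALB/c replicate 3 and SKG replicate 2 were nearly equal.

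**Figure D2:**
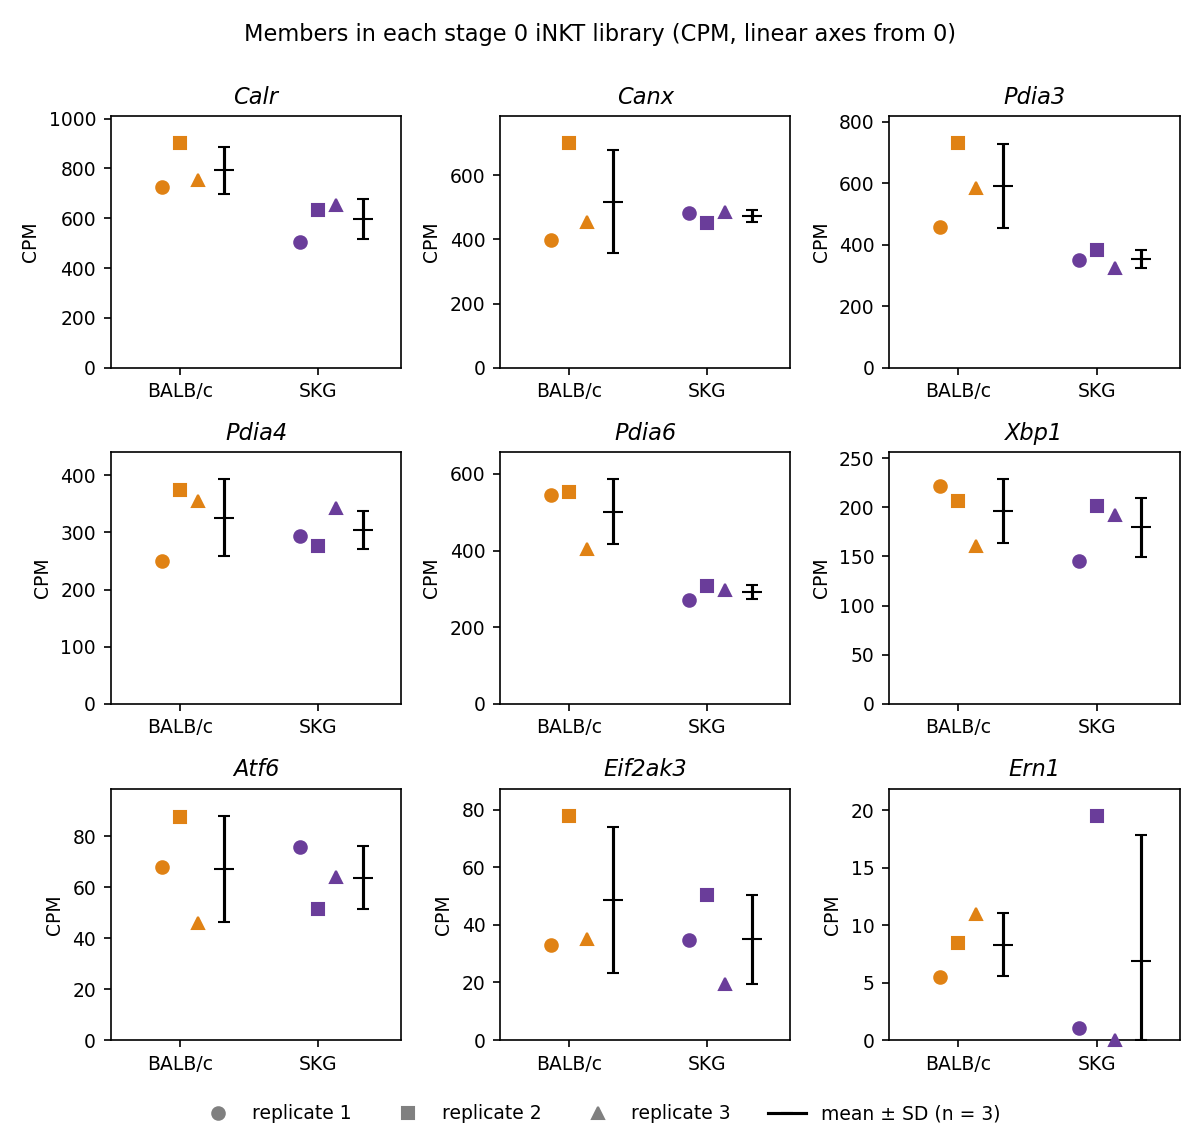
CPM of each member (vertical axes, linear from 0) in the BALB/c (orange) and SKG (purple) libraries, with a symbol for each replicate and the mean ± SD (n = 3) beside them in black, the bar of Ern1 in SKG being cut at 0. The SKG points of Pdia6, Pdia3 and Calr lie below every BALB/c point, and BALB/c replicate 2 is the highest BALB/c point for 7 of 9 members.

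The sensors were counted at far lower levels than the folding genes. Eif2ak3 (chromosome 6, 70844515 to 70905245), which encodes PERK, was at 33.0, 77.9 and 35.1 CPM in BALB/c and at 34.9, 50.5 and 19.4 CPM in SKG. The genotypes overlapped, and the lowest and the highest library were 1 from each. Its log2 fold change of -0.48 had a standard error of 0.53, and it became 0.03 without BALB/c replicate 2. Of its exonic bases, 8.05% are shared with an antisense transcript, and counting ignored strand.

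Atf6 (chromosome 1, 170704674 to 170867771) was at 68.1, 87.7 and 46.0 CPM in BALB/c and at 75.8, 51.4 and 64.2 CPM in SKG. The SKG range lay within the BALB/c range. The log2 fold change was -0.08 (95% interval -0.86 to 0.71), and its sign changed when BALB/c replicate 2 or SKG replicate 2 was left out.

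Ern1 (chromosome 11, 106394650 to 106487852), the gene of IRE1α, was the least counted member and the most uneven. Its reads numbered 226, 313 and 496 in BALB/c replicates 1 to 3 and 43, 760 and 0 in SKG replicates 1 to 3. A single SKG library was thus above every BALB/c library and the other two were below them all. The 0 reads in SKG replicate 3 allow a level of up to 0.0830 CPM (3 reads, counting error only), while SKG replicate 2 was at 19.6 CPM. This limit leaves out loss of RNA before sequencing from about 1000 cells. SKG replicate 3 had the fewest genes with at least 10 reads of all libraries, 10835 against 14791 and 12287 in SKG replicates 1 and 2. The fitted log2 fold change of -0.27 had a standard error of 1.97. Without SKG replicate 2 it was -3.93, and with SKG replicate 3 omitted instead it was 0.33, so no difference between the genotypes in either direction was detectable for Ern1 at this spread.

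Xbp1 (chromosome 11, 5520659 to 5525893), the target of IRE1α, was counted in every library, at 222, 206 and 160 CPM in BALB/c and 145, 201 and 192 CPM in SKG. The ranges overlapped over most of their length. Its averages of 196 ± 32.2 CPM and 180 ± 30.3 CPM (mean ± SD, n = 3) differed by less than the spread within a genotype, with a log2 fold change of -0.13 and a 95% interval of -0.62 to 0.37. In SKG replicate 3, where Ern1 had 0 reads, Xbp1 stood at 192 CPM.

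To compare levels between genes, CPM were divided by the length of all annotated exons of a gene in kb. Calr was the most abundant member on this scale, at 275 ± 32.7 CPM per kb in BALB/c and 207 ± 27.3 in SKG (mean ± SD, n = 3), and it was above every other member in each of the 6 libraries. In BALB/c it was followed by Pdia3 (188), Pdia4 (136), Pdia6 (134) and Canx (110), whose neighbours overlapped in range. In SKG the order was Pdia4 (127), Pdia3 (112), Canx (101) and Pdia6 (78.1), and there Canx was above Pdia6 in 3 of 3 libraries without overlap. Xbp1 came next in both genotypes (60.4 and 55.3), apart from its neighbours on either side. Eif2ak3 (8.07 and 5.79) and Atf6 (7.29 and 6.91) overlapped with each other in both genotypes, and Ern1 (1.02 and 0.841) was last.

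**Figure D3:**
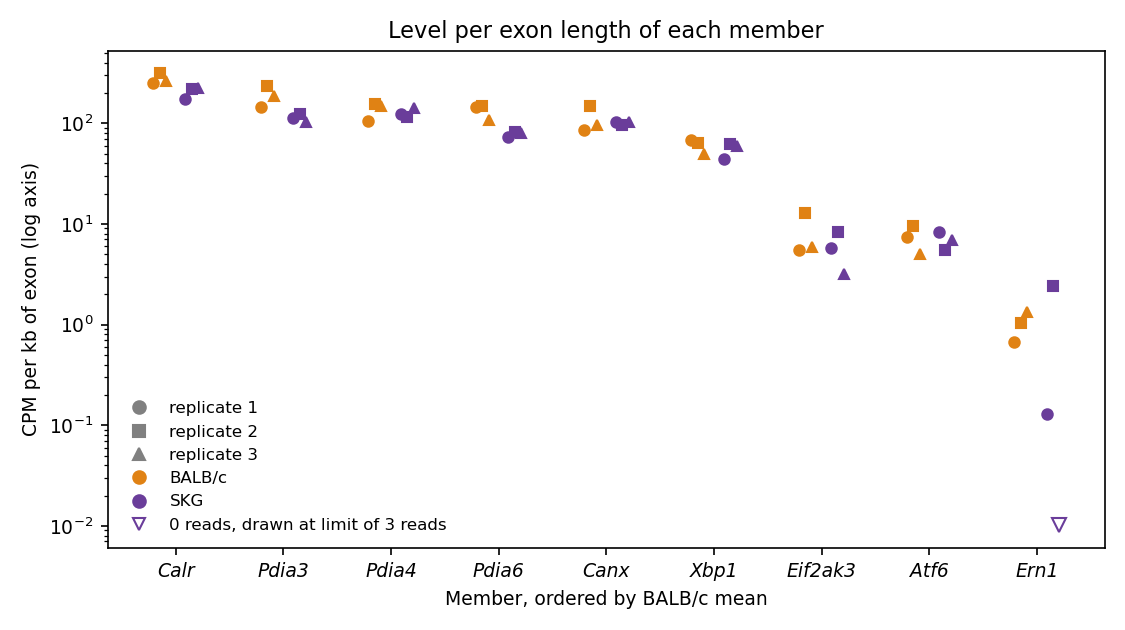
Level of each member per exon length (CPM per kb, log axis) in every library, BALB/c in orange and SKG in purple, with members ordered by their BALB/c mean. Calr is highest, Canx and the Pdia genes form a group above Xbp1, Eif2ak3 and Atf6 lie lower, and Ern1 is spread most widely in SKG, where a library with 0 reads is drawn as an open triangle at the limit of 3 reads.

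Spread between libraries of a genotype, as a coefficient of variation of CPM, was lowest in SKG for Canx (4.10%), Pdia6 (6.24%) and Pdia3 (8.39%), and it was 30.9%, 16.9% and 23.0% for the same genes in BALB/c. For Ern1 it was 33.2% in BALB/c and 160% in SKG. The medians over all genes tested, at any level, were 37.5% and 38.4%. For the most abundant gene of each list described below, it ran from 7.06% (Vcp) to 20.6% (Atf6b) in BALB/c. In SKG these genes ran from 3.28% (Tap2) to 26.4% (Atf6b), so low spread was not particular to the members.

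Other genes of ER folding, degradation and the UPR were read from 7 lists with 61 genes. Of these 56 were tested, and Pdia5, Uggt2, Ern2, Trib3 and Chac1 had too few reads. edgeR called 0 of the 56. At an unadjusted p under 0.05, 7 were lower (2.38% of all genes) and 3 higher in SKG (3.07% of all genes). In the lower direction 10 did not overlap (7.12% of all genes), and in the higher direction 7 did not (6.77% of all genes). The median log2 fold change of the 56 was -0.19, and 35 were below 0, beside 51.0% of all genes. Without BALB/c replicate 2 the median was -0.09 and 30 of 56 were below 0, and without SKG replicate 3 the median was -0.12 and 33 of 57 were below 0. Genes below that are not the most abundant of their list or the one with its lowest p were chosen for naming after their values were seen. All of these except B2m passed the unadjusted threshold.

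The list nearest to the lower members was that of ER chaperones and cochaperones. Its median was -0.31, with 9 of 11 genes below 0, 5 of 11 without overlap in that direction (7.12% of all genes) and 4 of 11 lower at an unadjusted p under 0.05 (2.38% of all genes). The list was chosen with earlier results of these data known, so these counts are a description and not a test. Hspa5, its most abundant gene and a UPR target that carries the element shown above, was at 1435, 1544 and 1134 CPM in BALB/c and at 901, 987 and 792 CPM in SKG. All its SKG libraries lay under the BALB/c libraries, and the log2 fold change was -0.62 (SE 0.16, edgeR adjusted p = 0.686). The other genes at that threshold were Dnajb11 (log2 fold change -0.91), an Hsp40 cochaperone of BiP, Manf (-0.84), a small secreted ER stress protein, and Sdf2l1 (-1.29), which acts with BiP. The lowest edgeR adjusted p of the 4 was 0.686, and DESeq2 without shrinkage called only Manf among them (adjusted p = 0.0870, and 0.119 with shrinkage).

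Genes of ER-associated degradation, which removes proteins that fail to fold, were spread to both sides. Their median was 0.25, with 8 of 13 above 0 and 4 of 13 without overlap in the higher direction (6.77% of all genes). In the lower direction 1 of 13 did not overlap (7.12% of all genes). At an unadjusted p under 0.05, 2 were higher (3.07% of all genes) and 1 was lower (2.38% of all genes). Edem1, which takes misfolded glycoproteins out of the calnexin cycle, was at 140, 193 and 208 CPM in BALB/c and at 311, 346 and 451 CPM in SKG. Every SKG library was above every BALB/c library, and the log2 fold change was 1.04 (SE 0.22, edgeR adjusted p = 0.617). Derl1, a component of the retrotranslocation channel, had a log2 fold change of -0.75. Vcp, the ATPase that extracts the proteins and the most abundant gene of the list, had 0.24. DESeq2 called Edem1 higher without shrinkage (adjusted p = 0.0250), where 1.23% of its tested genes were called higher, and with shrinkage (adjusted p = 0.0303), where 0.851% were.

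The remaining folding lists had medians close to that of the members. Other oxidative folding enzymes had a median of -0.22, and 0 of 8 were without overlap (7.12% of all genes lower, 6.77% higher). At the unadjusted threshold 0 of 8 passed (2.38% of all genes lower, 3.07% higher), and for so few genes 0 is near these shares. P4hb, the founding disulfide isomerase, had -0.24 and Erp44 -0.49. In glycan trimming and reglucosylation the median was -0.23. There 1 of 5 was lower without overlap (7.12% of all genes), and 1 of 5 was lower at an unadjusted p under 0.05 (2.38% of all genes). Prkcsh, the β subunit of glucosidase II, was lower without overlap (-0.57, adjusted p = 0.830 from edgeR), and the catalytic subunit Ganab had -0.36 with overlap.

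Downstream and beside the sensors, 0 of 14 tested genes passed the unadjusted threshold (2.38% of all genes lower, 3.07% higher). For so few genes, a count of 0 is near these shares. Partners of ATF6 and IRE1 had a median of -0.19, with Atf6b at -0.23 and Traf2, an adaptor of IRE1α, at 0.42. Of the 6 tested, 1 was lower without overlap (7.12% of all genes) and 1, Traf2, was higher without overlap (6.77% of all genes). The PERK arm and the integrated stress response had a median of -0.11, with Eif2s1, which encodes the eIF2α that PERK phosphorylates, at -0.25. Of the 8 tested genes there, 1 was higher without overlap (6.77% of all genes) and 0 were lower without overlap (7.12% of all genes). Eif2ak4 (GCN2), an eIF2α kinase that senses lack of amino acids, was at 1.84, 0.566 and 37.3 CPM in BALB/c and at 69.9, 75.4 and 121 CPM in SKG, apart in all libraries but with a standard error of 1.43 on a log2 fold change of 2.75.

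The 5 genes of class I and CD1d assembly, in which Pdia3 and Calr take part, differed in direction. Tapbp (tapasin), which binds Pdia3 in the peptide loading complex, was at 349, 282 and 235 CPM in BALB/c and at 187, 183 and 195 CPM in SKG, a log2 fold change of -0.61 (adjusted p = 0.804 from edgeR). Cd1d1, which presents lipids to iNKT cells, was at 52.3, 20.2 and 53.8 CPM in BALB/c and at 76.2, 96.5 and 151 CPM in SKG, a log2 fold change of 1.36 (adjusted p = 0.834 from edgeR). Both genes were without overlap, in opposite directions. In the whole list, 2 of 5 genes were lower without overlap (7.12% of all genes) and 1 was higher (6.77% of all genes). At an edgeR unadjusted p under 0.05, 1 was lower (2.38% of all genes) and 1 was higher (3.07% of all genes). B2m, the chain that pairs with class I and CD1d, was also lower without overlap, with a log2 fold change of -0.43, and was named for that after its values were seen. Tap2, a subunit of the peptide transporter, had 0.10. The part of the lower Egr2, Cd69 and summed stage 0 marker levels of SKG libraries in any of these values was not tested.

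**Figure D4:**
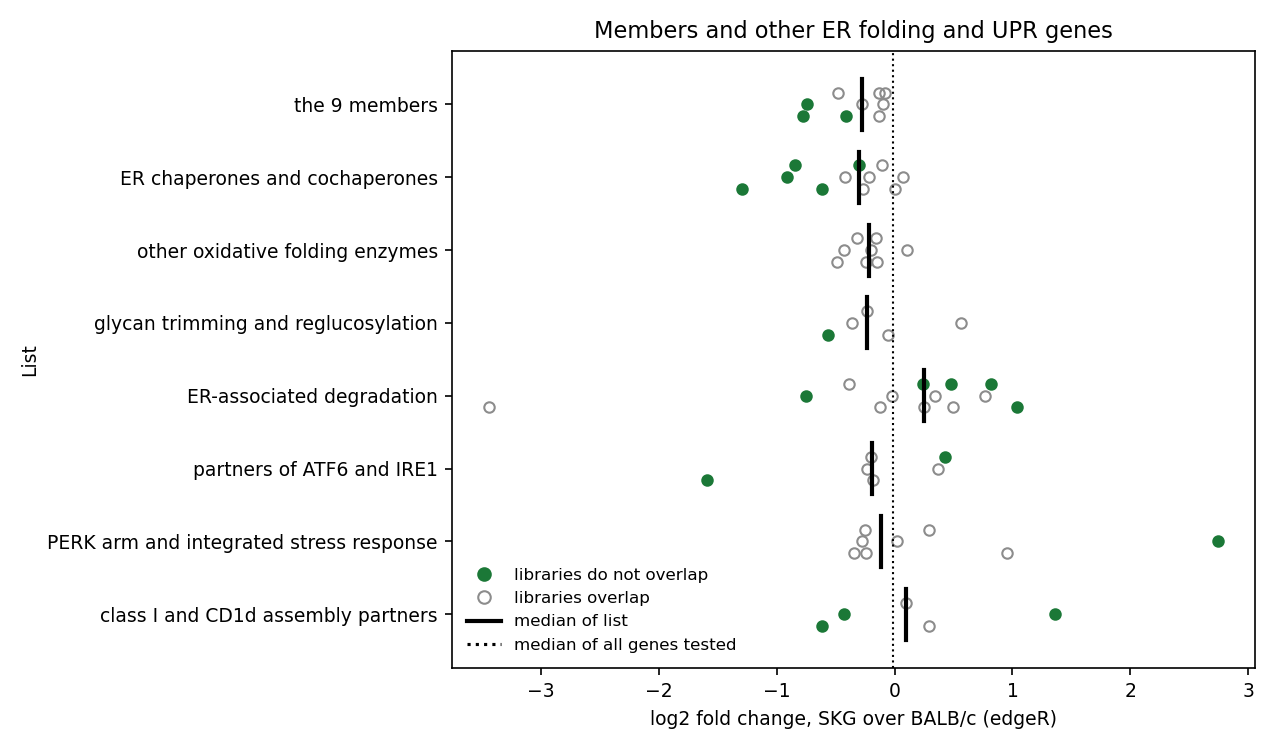
Log2 fold change (SKG over BALB/c, horizontal axis) of the 9 members and of the 56 tested genes of the other 7 lists (vertical axis), filled where the libraries of the genotypes do not overlap, with black bars at list medians and a dotted line at the median of all genes. The chaperone list and the members lie mostly left of the line (medians -0.31 and -0.27) and ER-associated degradation mostly right of it (0.25).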

How the data were processed

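The deposited counts are whole reads per gene without normalization. The authors aligned 50-nt reads to GRCm38 with HISAT2 2.1.0, ignoring strand, and featureCounts (Subread 1.4.4) assigned those with mapping quality 10 or above to Ensembl genes. A second file with the authors' DESeq2 comparison (fold changes, p-values) was not used. The sources name different amplification kits. PCR copies cannot be told from molecules.

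The fits used edgeR 4.0.16 in R 4.3.3 (filterByExpr, TMM, quasi-likelihood F test, 3 libraries against 3, no covariate) and Benjamini-Hochberg adjustment over 12312 genes. Alternatives used DESeq2 1.42.0 and limma 3.58.1. Standard errors (SE) were taken as the size of the log2 fold change divided by √F. The code of the fits was run on simulated counts that had less spread between libraries than these data. That run does not show how well the fits perform here. Positions and exon lengths are from GENCODE M21 of GRCm38, matched by symbol. Members and lists were chosen with earlier results of these data known. All members are named, and from each list the gene with the highest mean CPM and the gene with the lowest p. Deviations of libraries with the same replicate number correlated at -0.0553, 0.00991 and -0.0657, so libraries were not paired. Values of 1 gene of the lists are not reported here.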

Additional observations from a re-analysis of the deposited data

How the results depend on the processing

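For single members, 123 of 134 comparisons with an alternative kept direction and side of the threshold. DESeq2 called 370 genes without and 231 with shrinkage, among them 1 member in each case (Pdia6) and 3 and 1 genes of the other lists. edgeR called 2 genes without a filter on low counts and 1 with a stricter filter, 0 of them members. limma-voom, other scalings, no fold-change threshold, each library left out and a replicate block by title numbers (0 genes, 0 members) or by library numbers (0 genes, 0 members) left edgeR's counts at 0. The library-number block takes 2 libraries out of the comparison. With 1 library left out, the log2 fold change crossed 0 for Canx (-0.28 to 0.14, positive without BALB/c replicate 2), Ern1 (-3.93 to 0.33, positive at 2.2e-05 without BALB/c replicate 3, 0.24 without SKG replicate 1 and 0.33 without SKG replicate 3), Eif2ak3 (-0.83 to 0.033, positive without BALB/c replicate 2), Atf6 (-0.28 to 0.15, positive without BALB/c replicate 2 and, at 0.07, without SKG replicate 2) and Xbp1 (-0.25 to 0.0029, positive without SKG replicate 1). The library-number block gave Pdia4 a value of 0.011. The cause was not tested. Ern1, at -3.56 by limma-voom, was not in the fit with the stricter filter. Pdia3, Pdia6 and Calr did not reverse in any of their 15 alternatives. With 6 of 6 single omissions, the median of the other lists stayed below 0, nearest to it (-0.09) without BALB/c replicate 2.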
